A study of Homo sapiens with 2 samples.

Results

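PROX1 peaks were described at the genes of 4 Notch pathway proteins, JAG1, NOTCH1, NOTCH2 and HES1. For each gene the peaks were taken whose centre lay in a fixed stretch of hg18, made of the gene and about 50 kb on either side. This gave 12 peaks in 4 spans, of 23450 peaks in the whole list. The spans were 20:10516000 to 10653000 for JAG1 (137 kb), 9:138458000 to 138611000 for NOTCH1 (153 kb), 1:120205000 to 120464000 for NOTCH2 (259 kb) and 3:195286000 to 195390000 for HES1 (104 kb). None of the 4 spans was without a peak. JAG1 held 4 peaks, NOTCH1 held 2, NOTCH2 held 1 and HES1 held 5.

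The peaks came from SW480R cells, which were derived from the established human colorectal adenocarcinoma line SW480. Chromatin immunoprecipitation with a goat antibody against the homeobox transcription factor PROX1, followed by sequencing (ChIP-seq), gave 1 library, which was set against 1 library of input DNA from the same cells. The ChIP material was a pool of 3 independent experiments, so there was no replicate spread and no difference between conditions could be tested. The sources used here do not state how deeply either library was sequenced. All values below describe this 1 pair of libraries, and the intervals cover counting error only.

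Notch signalling passes between touching cells. A ligand on one cell, such as JAG1, binds a receptor on its neighbour, such as NOTCH1 or NOTCH2, and the receptor is cut so that its intracellular part enters the nucleus. There it joins the DNA-binding protein RBPJ and turns on target genes, of which HES1 is a classical one. HES1 is itself a transcriptional repressor of the basic helix-loop-helix family. In the intestine the pathway maintains crypt progenitor cells and holds back secretory fates.

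The promoters of HES1 and JAG1 are shown because the peaks nearest to a gene's 5′ end belonged to these genes. Each runs from 250 bases before to 50 bases after the transcription start in RefSeq on GRCh38.p14, which is not the build of the peaks, so that no peak can be placed on the printed letters. HES1 is on the plus strand at chr3:194135898-194136197 and JAG1 on the minus strand at chr20:10673950-10674249. Capitals mark TGGGAA, the core of the RBPJ site, searched on both strands.
HES1: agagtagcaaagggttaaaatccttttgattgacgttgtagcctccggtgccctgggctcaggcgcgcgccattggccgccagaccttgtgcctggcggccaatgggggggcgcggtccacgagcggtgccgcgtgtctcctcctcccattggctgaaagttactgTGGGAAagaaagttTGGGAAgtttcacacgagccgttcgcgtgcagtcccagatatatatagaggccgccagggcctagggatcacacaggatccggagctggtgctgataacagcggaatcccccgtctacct
JAG1: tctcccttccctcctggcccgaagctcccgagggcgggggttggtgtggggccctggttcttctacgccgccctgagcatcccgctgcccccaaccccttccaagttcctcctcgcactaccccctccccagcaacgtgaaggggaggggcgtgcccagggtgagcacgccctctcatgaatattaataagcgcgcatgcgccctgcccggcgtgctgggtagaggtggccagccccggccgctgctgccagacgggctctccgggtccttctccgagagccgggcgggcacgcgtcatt
The HES1 promoter held 2 matches to TGGGAA, both in the direction of the gene, which began 84 and 70 bases before the start. At least 2 matches were found in 3.8% of the 35116 promoters of the table, and at least 1 in 24% of them. No match was found in these windows of JAG1, NOTCH1 and NOTCH2. The N box CACNAG, a motif that HES1 proteins bind, was also searched on both strands. It had 4 matches in the HES1 promoter, 2 in NOTCH1, 1 in NOTCH2 and 0 in JAG1. The 2 NOTCH1 matches overlap, 1 on each strand, so they mark 1 place. Counted in the same way, 0.293% of all promoters held 4 or more matches, 8.94% held 2 or more and 38% held 1 or more. No RBPJ match overlapped an N box match in HES1. These matches describe letters alone.

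To place the peaks on each gene, the gene's RefSeq length was centred in its span, which left flanks of 50.3 kb for JAG1, 50.7 kb for NOTCH1, 50.4 kb for NOTCH2 and 50.7 kb for HES1. The 5′ ends below are estimates from this. Their error is 0.34 kb for JAG1, 0.69 kb for NOTCH1, 0.45 kb for NOTCH2 and 0.71 kb for HES1 if the true flank was 50 kb at 1 side, and the lengths come from GRCh38.p14. Of the 12 peaks, 4 lay in a gene, 6 upstream and 2 downstream. None lay within 2 kb of an estimated 5′ end, and 4 lay within 6 kb of one. The nearest, at JAG1, was 2.31 kb away, so the count at 2 kb depends on the error of 0.34 kb. The gene lengths were 36316 bp for JAG1, 51616 bp for NOTCH1, 158110 bp for NOTCH2 and 2585 bp for HES1, within 653 kb of spans. Stretches of 2 kb at the 5′ ends are a small part of that length. No expected count was computed for any of these positions, so the counts do not show that peaks favour or avoid them.

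JAG1, the ligand, held the peak with the highest fold of the 4 spans. It lay at 10548271 to 10548371, about 18 kb beyond the 3′ end of the gene, with 57 tags (the sequenced reads that the list counts in a peak) and a fold over input of 57.14. This fold stood at rank 1216 of 23417 nuclear peaks, in the highest 5.19%. Whether this peak lies in a neighbouring gene was not analysed, since no hg18 annotation was used. A pair of 40 bp peaks lay inside JAG1 near its 5′ end. The first, at 10600331 to 10600371, was 2.31 kb into the gene and held 57 tags at a fold of 19.05. Its partner at 10599391 to 10599431 was 3.25 kb into the gene and held 39 tags at a fold of 19.55, with 900 bp between the pair. Both folds lay close to the median of all nuclear peaks, which was 19.05. The last JAG1 peak, at 10643771 to 10643831 and 41.1 kb upstream, had 13 tags and a fold of 13.03, the lowest fold in the list.

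NOTCH1, a receptor, had both of its peaks inside the gene. They lay at 138540671 to 138540711 and 138542151 to 138542291, about 19.6 kb and 18.1 kb from the 5′ end and 1.44 kb from each other. Each held 27 tags, with folds of 13.53 and 13.03. These are at or near the lowest fold of the list, so the pair only just entered the list. No peak was listed within 18 kb of the estimated 5′ end of NOTCH1.

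NOTCH2, the other receptor, had the fewest peaks in the longest span. Its single peak lay at 120432251 to 120432291, about 18.7 kb upstream of the gene, with 29 tags and a fold of 29.07. That fold stood at rank 5488 of the nuclear peaks. No peak was listed in the gene itself. The nearest other peak was 271 kb away. The human genome holds NOTCH2NL genes, partial copies of NOTCH2 with near-identical sequence, and how reads that match several places were treated is not stated in any source used here. A NOTCH2 place without a peak therefore cannot be told apart from a place whose reads were not counted. Whether the tags of the listed NOTCH2 peak came from its own place or from a copy was not tested.

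HES1, the target gene, held the most peaks, and all of them had low folds. On the upstream side, a peak of 15 tags with a fold of 15.04 lay at 195290011 to 195290091. A peak of 105 tags with a fold of 17.54 lay beside it at 195290211 to 195290251, with 120 bp between them. They were 46.7 kb and 46.5 kb upstream of the gene. The peak with 105 tags stood at rank 1110 of the nuclear peaks by tags but at rank 13749 by fold. The input tags behind a peak were inferred from its tags and fold, and came to 6 here. The peak at 195302151 to 195302371 was 34.4 kb upstream, with 19 tags at a fold of 14.03.

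The remaining HES1 peaks lay on either side of this short gene. The one at 195331531 to 195331571 was 5.16 kb upstream, with 13 tags at the lowest fold of 13.03. The other, at 195340311 to 195340371, was 1.05 kb beyond the 3′ end, with 15 tags at a fold of 15.04. No peak was listed in the gene, which is 2585 bp long in RefSeq, or in its promoter. The highest fold of the HES1 span was 17.54, below the median of all nuclear peaks.

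**Figure D1:**
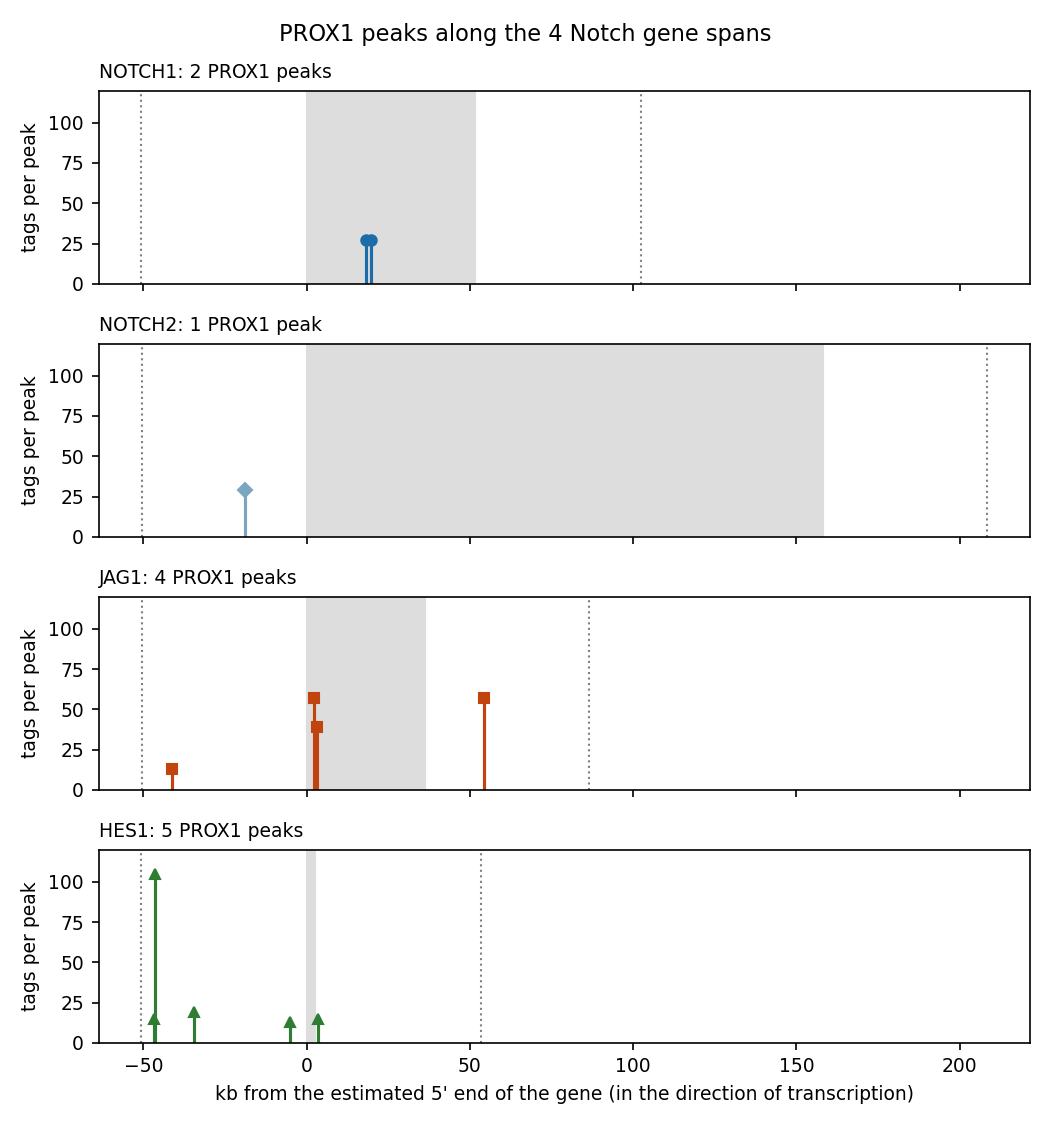
Tags per PROX1 peak (vertical axis) against distance in kb from the estimated 5′ end of each gene, in the direction of transcription (horizontal axis). Grey shading is the gene, dotted lines are the ends of the span, and each stem is 1 peak. The JAG1 pair stands just inside the gene, the NOTCH1 pair further inside, and the tallest stem is the HES1 peak of 105 tags far upstream.

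Peaks per kb were above the genome rate at HES1 and JAG1, and the intervals were wide because the counts were small. HES1 held 0.0481 peaks per kb (48.1 per Mb, 95% exact Poisson interval 15.6 to 112), against 7.60 per Mb in the nuclear genome, a ratio of 6.32 (2.05 to 14.8). JAG1 held 0.0292 per kb (29.2 per Mb, 7.96 to 74.8), a ratio of 3.84 (1.05 to 9.83). Against the genome without assembly gaps, at 8.19 peaks per Mb, the JAG1 ratio was 3.56 (0.971 to 9.12), an interval that includes 1, and the HES1 ratio was 5.87 (1.91 to 13.7). NOTCH1 held 0.0131 per kb (13.1 per Mb, 1.58 to 47.2), a ratio of 1.72 (0.208 to 6.21), and its interval includes the genome rate. NOTCH2 held 0.00386 per kb (3.86 per Mb, 0.0978 to 21.5), a ratio of 0.508 (0.0129 to 2.83), and its interval includes the genome rate too. Among the better-ranked 50% of the list the NOTCH2 ratio was 1.02. The order of HES1 and JAG1 depended on the borders: with 50 kb more on either side JAG1 was at 6.66 times the genome rate and HES1 at 3.87 times. The Poisson interval treats peaks as independent, which they are not, so the true uncertainty is larger. Together the spans held 12 peaks in 653 kb, where the genome rate gives 4.96, a ratio of 2.42 (1.25 to 4.22). Most of these peaks were at HES1 and JAG1, and only 3 of the 12 were in the better-ranked 50% of the list.

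The surroundings of JAG1 were also rich in peaks. The stretches of 1 Mb on either side of the JAG1 span held 24.5 peaks per Mb, counted outside assembly gaps, so the span was at 1.19 times its neighbourhood. Chromosome 20 as a whole held 12.5 per Mb, against which the span was at 2.33 times. HES1 had the highest ratio of the 4 spans to its surroundings, at 2.57 times the 18.7 peaks per Mb on either side. Its interval of 15.6 to 112 per Mb included that local rate. Against chromosome 3 the HES1 span was at 6.68 times. NOTCH1 was at 1.84 times its surroundings of 7.11 peaks per Mb and at 2.12 times chromosome 9. NOTCH2 was at 0.448 times its surroundings of 8.63 per Mb and at 0.422 times chromosome 1. The intervals of JAG1, NOTCH1 and NOTCH2 also included the rates of their surroundings.

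**Figure D2:**
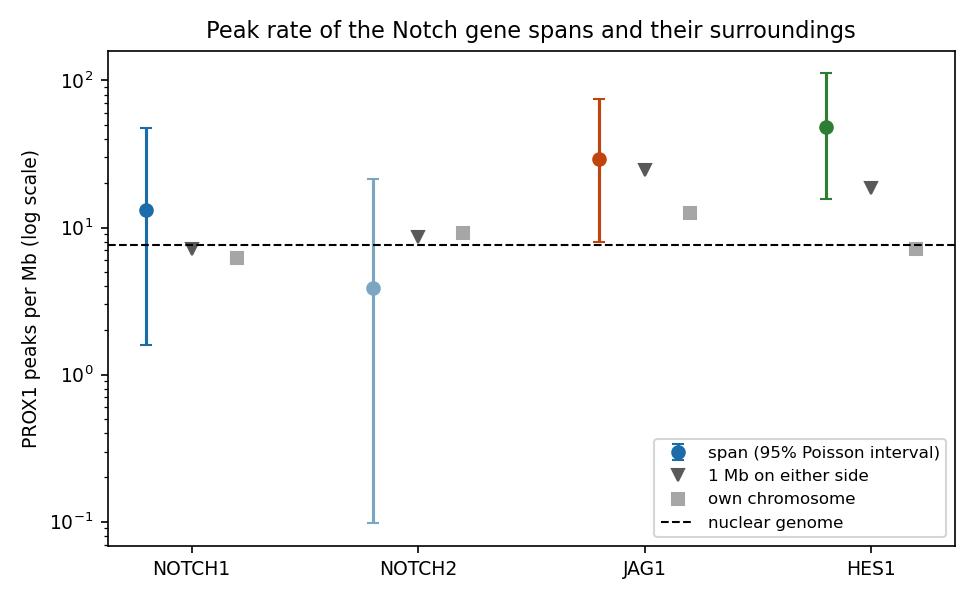
PROX1 peaks per Mb (vertical axis, log scale) for each span with its 95% exact Poisson interval, beside the 1 Mb on either side, the own chromosome and the nuclear genome (dashed line at 7.60). The HES1 interval lies above the dashed line, that of JAG1 begins just above it at 7.96 (below the 8.19 of the genome without gaps), and those of NOTCH1 and NOTCH2 cross it, while the JAG1 span and its surroundings lie close together.

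Windows as long as each span were tiled over the nuclear genome to show how often such counts occur. Of 27537 windows of 104 kb, 4.22% held 5 or more peaks, as HES1 did, and 64.1% held none. Of 20912 windows of 137 kb, 9.54% held 4 or more, as JAG1 did, and on chromosome 20 the share was 15.9%. Of 18721 windows of 153 kb, 26.4% held 2 or more, as NOTCH1 did. Of 11060 windows of 259 kb, 57.5% held 1 or more, as NOTCH2 did. The counts at NOTCH1 and NOTCH2 were thus common for their length, and that at HES1 was the least common of the 4.

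**Figure D3:**
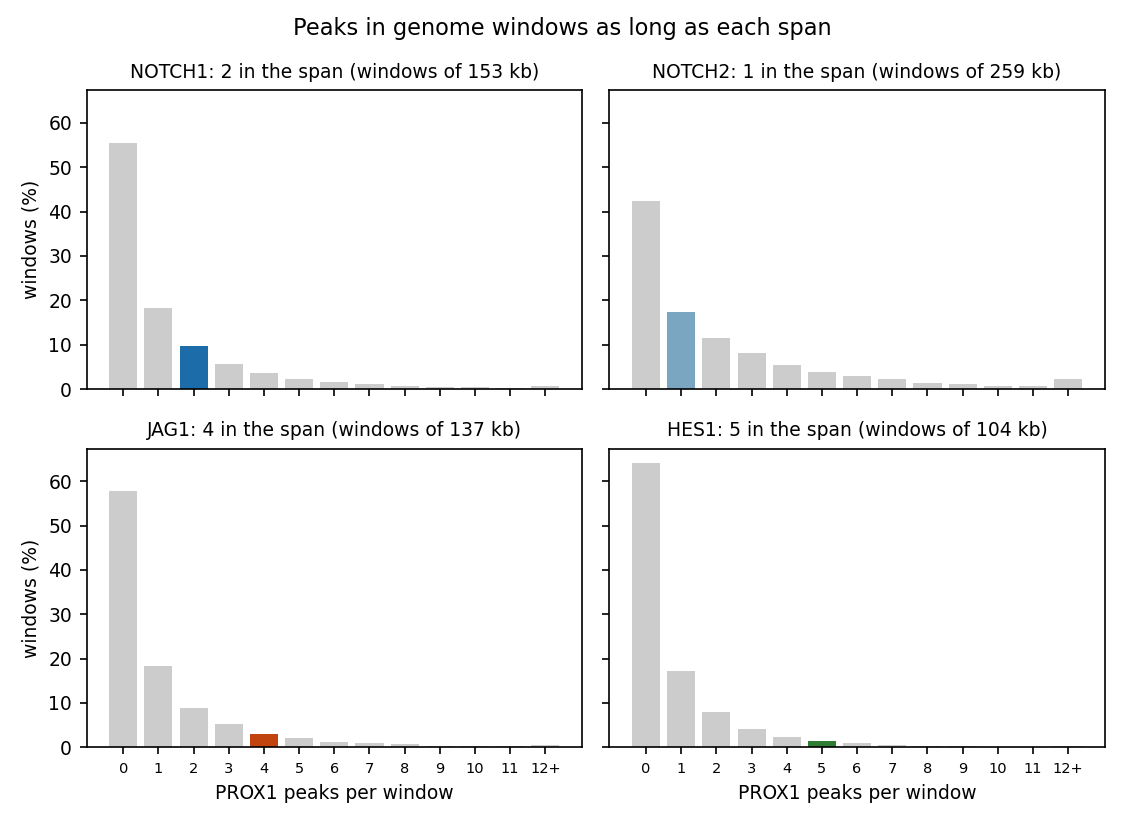
Share of genome windows in percent (vertical axis) by the number of PROX1 peaks in the window (horizontal axis), for windows as long as each span. The coloured bar is the number found in the span: it stands near the left for NOTCH2 and NOTCH1 and in the right tail for JAG1 and HES1.

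Tags followed the same order as peaks. The summed tags in peaks were 167 in the HES1 span, 166 in JAG1, 54 in NOTCH1 and 29 in NOTCH2, which is 1.61, 1.21, 0.353 and 0.112 tags per kb. The nuclear genome held 0.287 tags in peaks per kb. One peak carried 105 of the 167 HES1 tags. The JAG1 tags were spread more evenly, with 57, 57, 39 and 13 in its 4 peaks.

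Peaks are called strong here from a fold of 26.06, which doubles the lowest one listed. This was reached by 2 of the 12 peaks (16.7%, exact Clopper-Pearson 95% interval 2.09 to 48.4), against 30.3% of nuclear peaks. The share depended on the measure, since 4 of the 12 (33.3%) were among as many nuclear peaks with the most tags. The 2 strong peaks by fold were the single NOTCH2 peak and the JAG1 peak beyond the 3′ end. The lowest fold of the list was held by 3 of the 12 peaks (25%, 5.49 to 57.2), against 9.57% of nuclear peaks. Both intervals include the share of all nuclear peaks. The better-ranked part of the list, its upper 50% by the authors' p-value, held 3 of the 12 peaks, of which 2 were at JAG1, 1 at NOTCH2 and 0 at NOTCH1 or HES1. The median was 27 tags at a fold of 15.04 in the spans, against 25 tags at 19.05 over all nuclear peaks.

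Input bears on these folds. An inferred input that rounded to 2 or more was found behind 5 of the 12 peaks (41.7%, exact interval 15.2 to 72.3), against 24.1% of nuclear peaks. These were both NOTCH1 peaks, the JAG1 pair with 2 and 3 input tags, and the HES1 peak of 105 tags. The inferred value was 1, the lowest among the 12 peaks, behind the JAG1 peak of highest fold and the NOTCH2 peak. It was also 1 behind the JAG1 peak of 13 tags and the HES1 peaks of 13 and 15 tags. At all of these the fold equals the tags apart from a constant. Whether unequal copy number of these regions contributed to the tags was not tested.

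**Figure D4:**
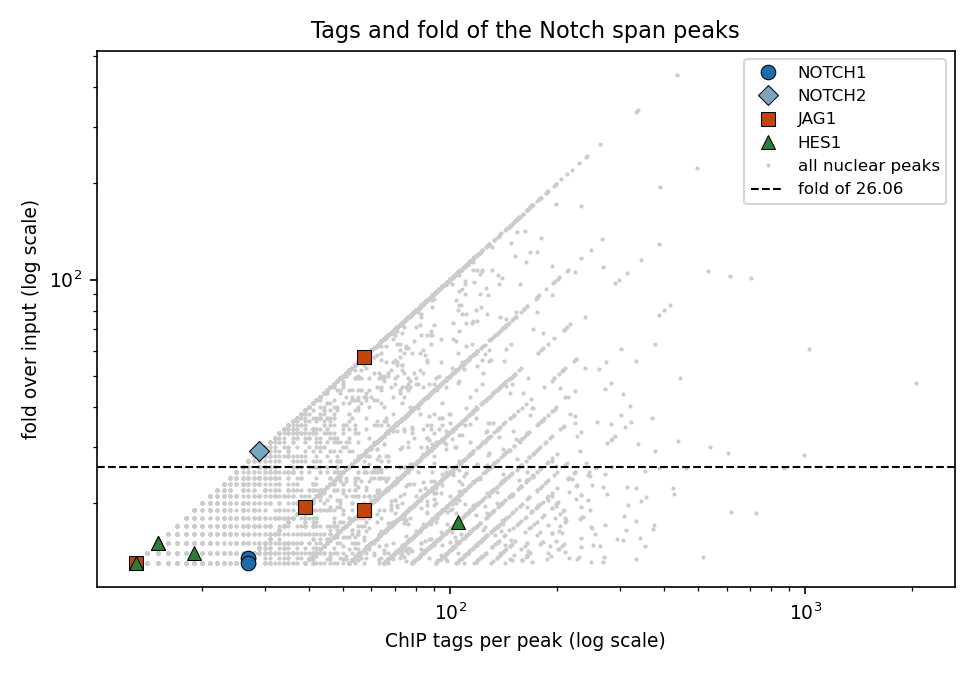
Fold over input against ChIP tags per peak (both axes log scale) for the 12 peaks of the Notch spans and for all nuclear peaks (grey dots). The dashed line marks a fold of 26.06: the NOTCH2 peak and 1 JAG1 peak lie above it, and all 5 HES1 peaks lie below it, 2 of them on the same point of 15 tags and a fold of 15.04.

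Peaks of the spans were grouped into runs by joining those whose edges lay within 10 kb. HES1 formed 3 runs, of 2, 1 and 2 peaks, and JAG1 also formed 3, of 1, 2 and 1. NOTCH1 formed 1 run of 2 peaks and NOTCH2 a single peak. No run reached beyond its span or held more than 2 peaks. In all, 8 of the 12 peaks had a neighbour within 10 kb (66.7%, exact interval 34.9 to 90.1), against 56.6% of nuclear peaks. Neighbours within 1 kb were seen at 4 of the 12 (33.3%), namely the JAG1 pair and the upstream HES1 pair, against 33.1% of nuclear peaks.

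The nearest peaks outside the spans show what their borders left out. Beyond the 3′ side of JAG1, the peak at 10507331 to 10507491 lay 8.59 kb from the border with 33 tags at a fold of 33.08, while on the 5′ side the nearest was 125 kb away. For NOTCH1 the nearest peaks were 12 kb beyond the 5′ border (138622811 to 138623111, 47 tags, fold 47.12) and 18.1 kb beyond the 3′ border. The fold of 47.12 exceeded both folds inside the NOTCH1 span. For HES1 the nearest were 33.5 kb beyond the 5′ border (195252431 to 195252471, 56 tags, fold 18.71) and 259 kb beyond the 3′ border. For NOTCH2 the nearest on the 3′ side was 44.2 kb away (120160691 to 120160911, 51 tags, fold 51.13). On its 5′ side no further peak was listed on the short arm, and the next lay 22834 kb away, across the centromere.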

How the data were processed

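The authors' deposited list of PROX1 peaks against input was used. Per the submitters' processing notes it is on hg18. The sources used here name no aligner, peak caller or threshold. Its columns have no names and were identified by their values. Tag counts per peak were deposited unnormalized, as whole numbers of at least 13. A further deposited column was taken as the fold, a ratio of ChIP to input tags, and the deposited p-value could be a q-value. Input tags were inferred as tags times 1.0025 divided by the fold, which was whole within 0.02 for 91.7% of nuclear peaks. Positions are as listed.

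The 23417 peaks on 24 nuclear chromosomes and full hg18 lengths (3080 Mb, GenomeInfoDb 1.38.1) gave the genome rate. Contig placements came from IRanges 2.36.0. Windows were tiled from each chromosome start, and those with under 50% of their length outside gaps were left out. Intervals are 95% exact Poisson for counts and Clopper-Pearson for shares. Reads without molecular identifiers are not independent molecules. No test was made, because there was 1 library of each kind. Python 3.11.15, numpy 2.4.6, scipy 1.17.1, pandas 2.3.3 and matplotlib 3.10.9 were used, and the counting was tested on simulated data. All peaks in the spans are named, with the nearest on each side. The spans and lists were chosen with earlier results of these data known. Gene lengths, strands and promoters, matched by symbol for all 4 genes, came from RefSeq on GRCh38.p14. Other Notch pathway genes were not analysed here, since no hg18 annotation was used.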

Additional observations from a re-analysis of the deposited data

How the results depend on the processing

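Of 65 values under alternative settings, 45 stayed within the interval of the reported value or within 1.5 times the reported count, and 20 did not. With the better-ranked 50% of the list, NOTCH1 and HES1 held 0 peaks (rates of 0) and JAG1 held 2, while the NOTCH2 ratio to the genome was 1.02. Without the 50 kb flanks, NOTCH2 and HES1 held 0 peaks (rates of 0) and JAG1 held 2, since fewer kb were counted. The ratios there were 4.96 for NOTCH1 and 7.11 for JAG1, and so little of the HES1 span remained that its 0 carries no weight. With spans widened by a further 50 kb on either side, NOTCH1 held 5 peaks, NOTCH2 held 2, JAG1 held 12 and HES1 held 6, at ratios of 2.6, 0.733, 6.66 and 3.87, so that JAG1 passed HES1. Joining within 1 kb gave NOTCH1 2 runs. With peaks within 1 kb counted once, 24.2% of windows held as many as NOTCH1 and 11.8% as many as JAG1. Windows of the own chromosome, a setting chosen after seeing the data, gave 24.9% for NOTCH1, 64.7% for NOTCH2, 15.9% for JAG1 and 3.95% for HES1. Over length without gaps the ratios to the genome were 1.6 for NOTCH1, 0.471 for NOTCH2, 3.56 for JAG1 and 5.87 for HES1, and the interval of JAG1 (0.971 to 9.12) then included 1. Ranked by tags, an equal number of strong peaks took in 33.3% of the peaks in the spans, in place of 16.7%, against 30.3% of nuclear peaks. The HES1 count rests on peaks outside the better-ranked 50%. With so few peaks, counting error limits every ratio. Only peaks past the authors' threshold are listed, so the level elsewhere in the spans was not analysed here. No paired analysis was possible because each group has 1 library.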

Other observations

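Peaks around the JAG1 and HES1 spans were unequal on the 2 sides, counted within 150 kb of each border after the values were seen. On the 3′ side of JAG1, SLX4IP, which encodes an SLX4-interacting protein, is the next protein-coding gene in RefSeq order. Whether it reaches into the JAG1 span or holds any of the peaks was not analysed, since no hg18 annotation was used. Beyond the 3′ border of the span, 14 peaks were listed with 472 tags (93.3 per Mb), between 10375811 and 10507491 of chromosome 20. Of these, 7 reached a fold of 26.06 or more, and the largest run held 7 peaks. Beyond the 5′ side of JAG1, 1 peak was listed with 96 tags. Of the windows of 153 kb tiled over the nuclear genome, 0.748% held 12 or more peaks and 55.4% held none.

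Beyond the 5′ side of HES1, 11 peaks were listed with 530 tags (73.3 per Mb), between 195144871 and 195252471 of chromosome 3, and beyond its 3′ side there were 0. Of the 11 peaks, 2 reached a fold of 26.06 or more and 6 had an inferred input that rounded to 2 or more. NOTCH2 had 4 peaks with 136 tags beyond its 3′ side, of which 2 reached that fold, and 0 beyond its 5′ side. NOTCH1 had 1 peak beyond its 3′ side and 2 beyond its 5′ side.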
